A study of Mus musculus with 4 samples.

Results

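The genes described here are the nuclear genes of the mitochondrial respiratory chain and ATP synthase in CD24+ liver cells of mice treated with HACY, set against those of mice treated with CCL4. They were chosen by symbol, as the table rows that begin with Nduf, Uqcr, Cox4 to Cox8 or Atp5 or that name Sdha, Sdhb, Sdhc or Sdhd, with 10 or more raw counts in at least 2 of the 4 libraries. Of 92 such rows among 21878 in the tables, 86 met the count rule. They comprise 36 subunits of complex I, 4 of complex II, 8 of complex III, 12 of complex IV, 15 of complex V, 10 assembly and related factors, and Ndufa4l2, a relative of Ndufa4 that is counted in no complex. Ndufa4, named for complex I, is placed here in complex IV, where its protein is now known to sit. The 6 rows left out were Cox4i2, Cox6b2, Cox7a1, Cox7b2, Cox8b and Cox8c. Just inside the rule, Cox6a2 had 25 and 13 counts in the HACY libraries and 3 and 9 in the CCL4 libraries. Just outside it, Cox4i2 had 2 and 4 counts in the HACY libraries and 1 and 11 in the CCL4 libraries.

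The HACY group holds 2 libraries from C57BL/6 mice given a mixture of the small molecules Y-27632, CHIR99021, which blocks the kinase GSK3, and A-83-01, which blocks the receptor kinases of the TGF-beta family, injected 3 times a week over 6 weeks. The CCL4 group holds 2 libraries from C57BL/6 mice given carbon tetrachloride, a liver toxin, at 2 ml/kg in olive oil, injected 2 times a week over 6 weeks. The labels put the mice at 8 weeks of age at injection, and elsewhere give 6 to 8 weeks. The labels do not make clear whether HACY mice also received carbon tetrachloride, and no untreated group was analysed here, so every difference below is HACY relative to CCL4. Cells of both groups were enriched on magnetic columns for CD24, a surface protein of liver progenitor cells that other liver cell types also carry. Nothing in the labels says that the libraries of a group came from different animals, so the spread on which the p-values rest is that between these libraries and may be technical.

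The respiratory chain sits in the inner mitochondrial membrane. Complex I (NADH dehydrogenase) and complex II (succinate dehydrogenase) pass electrons to coenzyme Q, complex III passes them to cytochrome c, and complex IV (cytochrome c oxidase) passes them to oxygen. Complexes I, III and IV pump protons, and complex V, the ATP synthase, uses the proton gradient to make ATP. Apart from complex II, each complex combines subunits encoded in the nucleus with subunits encoded in the mitochondrial genome. Only nuclear subunits are covered here, since no table row carried a mitochondrial gene prefix. Hepatocytes are rich in mitochondria and use this chain to fuel gluconeogenesis, urea synthesis and lipid metabolism.

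Many promoters of these genes are known to hold sites for the transcription factor NRF1 and for ETS family factors. The following stretches lie upstream of the transcription start given by RefSeq for GRCm38. They are shown because they include Uqcr10, the only subunit gene that passed the test, and genes with and without an NRF1 letter match. They are Uqcr10 (chr11:4704345-4704594, minus strand), Ndufa7 (chr17:33824322-33824571, plus strand), Cox6a1 (chr5:115348982-115349208, minus strand) and Ndufaf4 (chr4:24897833-24898082, plus strand). Each runs 5′ to 3′ on the strand of the gene, and capitals mark letter matches on either strand to the motifs named in the next paragraph. The stretch of Cox6a1 is cut to 227 bases to stay upstream of its annotated transcript, and so stops short of the RefSeq start.
Uqcr10: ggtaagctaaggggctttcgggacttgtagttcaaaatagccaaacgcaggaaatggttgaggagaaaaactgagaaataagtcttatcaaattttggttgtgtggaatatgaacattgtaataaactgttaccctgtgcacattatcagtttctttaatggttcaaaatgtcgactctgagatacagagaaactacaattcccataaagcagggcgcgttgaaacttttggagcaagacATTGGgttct
Ndufa7: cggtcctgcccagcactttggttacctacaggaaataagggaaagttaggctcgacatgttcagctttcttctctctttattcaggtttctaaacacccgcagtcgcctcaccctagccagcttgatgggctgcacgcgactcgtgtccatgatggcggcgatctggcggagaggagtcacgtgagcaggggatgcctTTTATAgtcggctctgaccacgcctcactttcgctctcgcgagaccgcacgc
Cox6a1: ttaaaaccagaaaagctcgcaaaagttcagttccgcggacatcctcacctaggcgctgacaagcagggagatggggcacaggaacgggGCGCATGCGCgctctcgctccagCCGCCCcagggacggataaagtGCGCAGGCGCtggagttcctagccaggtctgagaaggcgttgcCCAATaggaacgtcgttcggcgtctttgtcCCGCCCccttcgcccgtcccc
Ndufaf4: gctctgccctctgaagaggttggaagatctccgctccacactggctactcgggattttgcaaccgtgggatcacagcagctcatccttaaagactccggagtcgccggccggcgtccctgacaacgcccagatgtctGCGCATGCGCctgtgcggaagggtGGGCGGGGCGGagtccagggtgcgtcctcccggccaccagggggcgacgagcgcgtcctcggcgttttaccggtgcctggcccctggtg

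In the stretches shown, Uqcr10 held 1 CCAAT box and no match to the other motifs. Ndufa7 held 1 TATA box, and Cox6a1 held 2 NRF1 matches, 2 GC boxes and 1 CCAAT box. Ndufaf4 held 1 NRF1 match and 2 GC boxes. Promoter windows of 250 bases were found for 69 of the 86 genes, and the shares below are over these whole windows. For 54 of the 69, the bases just after the RefSeq start were found in a GENCODE transcript of the gene. Uqcr10 was not among the 54. The whole window of Cox6a1 also holds an ETS match, which the shorter stretch shown does not. An NRF1 match (GCGCA and GCGC with 1 base between them, either strand) was present in 13 of these 69 windows (18.8%), against 7.98% of the windows of all tested genes and 3.86% of all windows. An ETS match (CCGGAAG) was present in 17.4% of the respiratory chain windows, against 13.3% for all tested genes. A GC box (GGGCGG) was present in 37.7% of them, against 57.8% for all tested genes. The CCAAT box (CCAAT) was found in 29 of the 69 respiratory chain windows and in 36.4% of those of all tested genes, and the TATA box (TATAAA) in 7.25% and 6.75%. The YY1 letters (AANATGGC) were found in 7.25% of the respiratory chain windows and in 4.28% of those of all tested genes, and the oestrogen-related receptor letters (TCAAGGTCA) in 1.45% and 0.252%. Some motifs overlap each other within a window, and none of these matches is evidence of binding. The median log2 fold change was -0.22 for the 13 genes with an NRF1 match and -0.16 for the others.

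Levels per length differed widely between the complexes. On the deposited FPKM scale, which corrects for transcript length, the median level over both groups was 172 for complex IV, 122 for complex V, 115 for complex III, 75.8 for complex II, 42.3 for complex I and 7.17 for the assembly and related factors. Atp5b, the catalytic beta subunit of the ATP synthase, had the highest mean FPKM at 420. Cox7c, a small subunit of complex IV, followed at 331, and Atp5a1, the alpha subunit, at 316. At the low end stood Cox6a2 at 0.653, Atp5s at 1.28 and Ndufa4l2 at 1.45. The levels of 78 of the 86 genes were above the median of all tested genes, 6.72 FPKM.

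**Figure D1:**
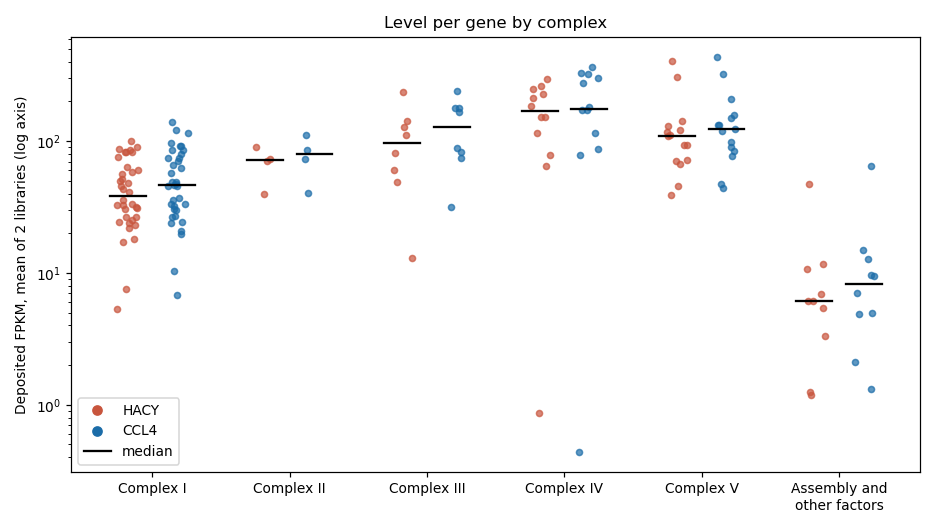
Deposited FPKM of each gene on a log axis, by complex, as the mean of 2 libraries per group (HACY left, CCL4 right of each pair). Each point is a gene and each black line a median. The median is highest for complex IV and lowest for the assembly and related factors in both groups, and the low point in complex IV is Cox6a2.

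The chain as a group took a smaller share of the RNA in HACY cells. All 86 genes together took 0.614% and 0.638% of the counts of the HACY libraries, against 0.749% and 0.797% of those of the CCL4 libraries. The means were 0.626 ± 0.0170% for HACY and 0.773 ± 0.0341% for CCL4 (SD, n = 2 each), a ratio of 0.810. The groups did not overlap, and the exact permutation test (two-sided) gave p = 0.333, the smallest that 2 against 2 libraries allow. Complex III had the lowest ratio among the complexes, with 0.0709% and 0.0743% in HACY libraries against 0.0949% and 0.102% in CCL4 libraries. Complex I took 0.137% and 0.139% in HACY against 0.166% and 0.180% in CCL4. Complex II took 0.0434% and 0.0439% in HACY against 0.0505% and 0.0488% in CCL4. Complex IV took 0.0884% and 0.0936% in HACY against 0.114% and 0.123% in CCL4. Complex V took 0.253% and 0.265% in HACY against 0.292% and 0.316% in CCL4. The assembly and related factors took 0.0206% and 0.0217% in HACY against 0.0316% and 0.0271% in CCL4. No complex overlapped between the groups on this scale. Shares rest on library size alone, and a typical gene was also lower in HACY on that scaling. There the median log2 fold change was -0.18 for all tested genes and -0.33 for the chain.

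**Figure D2:**
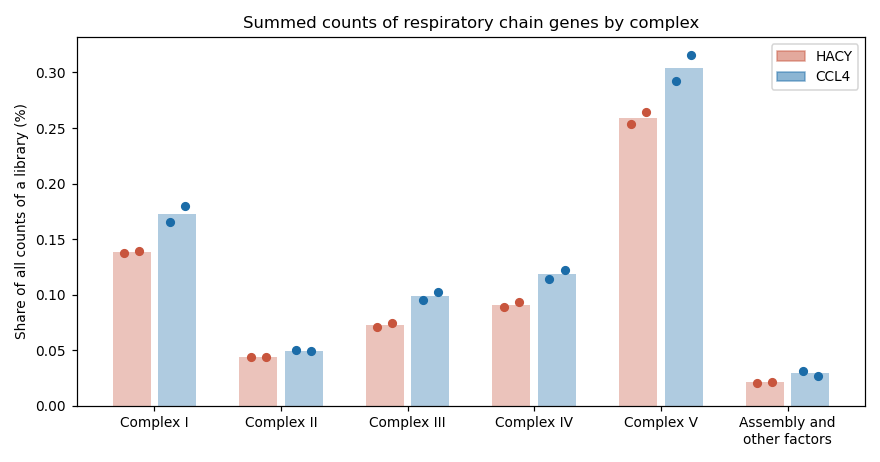
Share of all counts of a library taken by the genes of each complex, in percent (vertical axis). Points are the 2 libraries of each group (HACY left, CCL4 right), and bars are their means. Every pair of bars is lower in HACY, with ratios between 0.721 for the assembly and related factors and 0.880 for complex II. With scaling by library size only, the median log2 fold change of all tested genes was also negative, at -0.18.

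These shares depend on what else fills a library. The hepatocyte markers summed to 27503 and 34555 CPM, that is counts in parts per 1e6 of the scaled library, in HACY libraries and to 8085 and 6611 CPM in CCL4 libraries, and all 8 of them passed the test as higher. The macrophage markers summed to 3114 and 2199 CPM in HACY and to 907 and 1219 CPM in CCL4, with 7 of 8 higher. Cholangiocyte markers summed to 2918 and 4208 CPM in HACY and to 1133 and 2177 CPM in CCL4, with 1 of 6 higher. Spp1, not called, made up most of that sum, with 2838 and 4120 CPM in HACY and 1083 and 2108 CPM in CCL4, while Krt19 and Krt7 overlapped between the groups. Endothelial markers summed to 1147 and 868 CPM in HACY and to 383 and 648 CPM in CCL4, with 1 of 5 higher and 1 lower. Neutrophil markers summed to 38.4 and 41.5 CPM in HACY and to 47.8 and 315 CPM in CCL4, so 1 CCL4 library stood apart. Cd24a, which encodes the sorting marker, had 21.9 and 19.4 CPM in HACY and 20.7 and 38.0 CPM in CCL4, and overlapped. In bulk RNA, fewer cells of a type and less RNA per cell cannot be told apart, and the part of these cell types in the values below was not tested. CPM here are scaled by the TMM method, which sets aside genes of extreme change. On that scale the chain summed to 6421 and 6873 CPM in HACY against 6990 and 7585 CPM in CCL4, a log2 ratio of -0.13. The complex II sum differed by only -0.01 on that scale, the complex V sum by -0.06 and the complex III sum by -0.27. The sums of complexes I, III and IV still did not overlap between the groups, but those of complexes II and V did. Complex V summed to 2651 and 2851 CPM in HACY against 2727 and 3008 CPM in CCL4. Complex II summed to 454 and 473 CPM in HACY against 471 and 464 CPM in CCL4.

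Gene by gene, 1 of the 86 genes fell and none rose at an adjusted p below 0.05 (edgeR quasi-likelihood test, Benjamini-Hochberg adjustment over 13428 genes). Among all tested genes 3.54% were called lower and 8.19% higher. At an unadjusted p below 0.05, 15 genes of the chain were lower and 1, Cox6a2, was higher, against 13.6% lower and 16.6% higher among all tested genes. The direction of the fold changes was uneven. The log2 fold change was below 0 for 62 of the 86 genes (72.1%), against 50.9% of all tested genes, and the median was -0.15 against -0.01. Both HACY libraries lay below both CCL4 libraries in 49 genes (57.0%, against 30.1% of all tested genes) and above both in 10 (11.6%, against 30.7%). In the remaining 27 genes the groups overlapped. The median difference was about as large as the median standard error, which was 0.15. For 79 of the 86 genes the 95% interval of the fold change lay within 2-fold either way (62.5% of all tested genes). Cox6a2 met the count rule only through the HACY libraries and so had to lie higher there. Without it the median of the other 85 genes was -0.16.

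**Figure D3:**
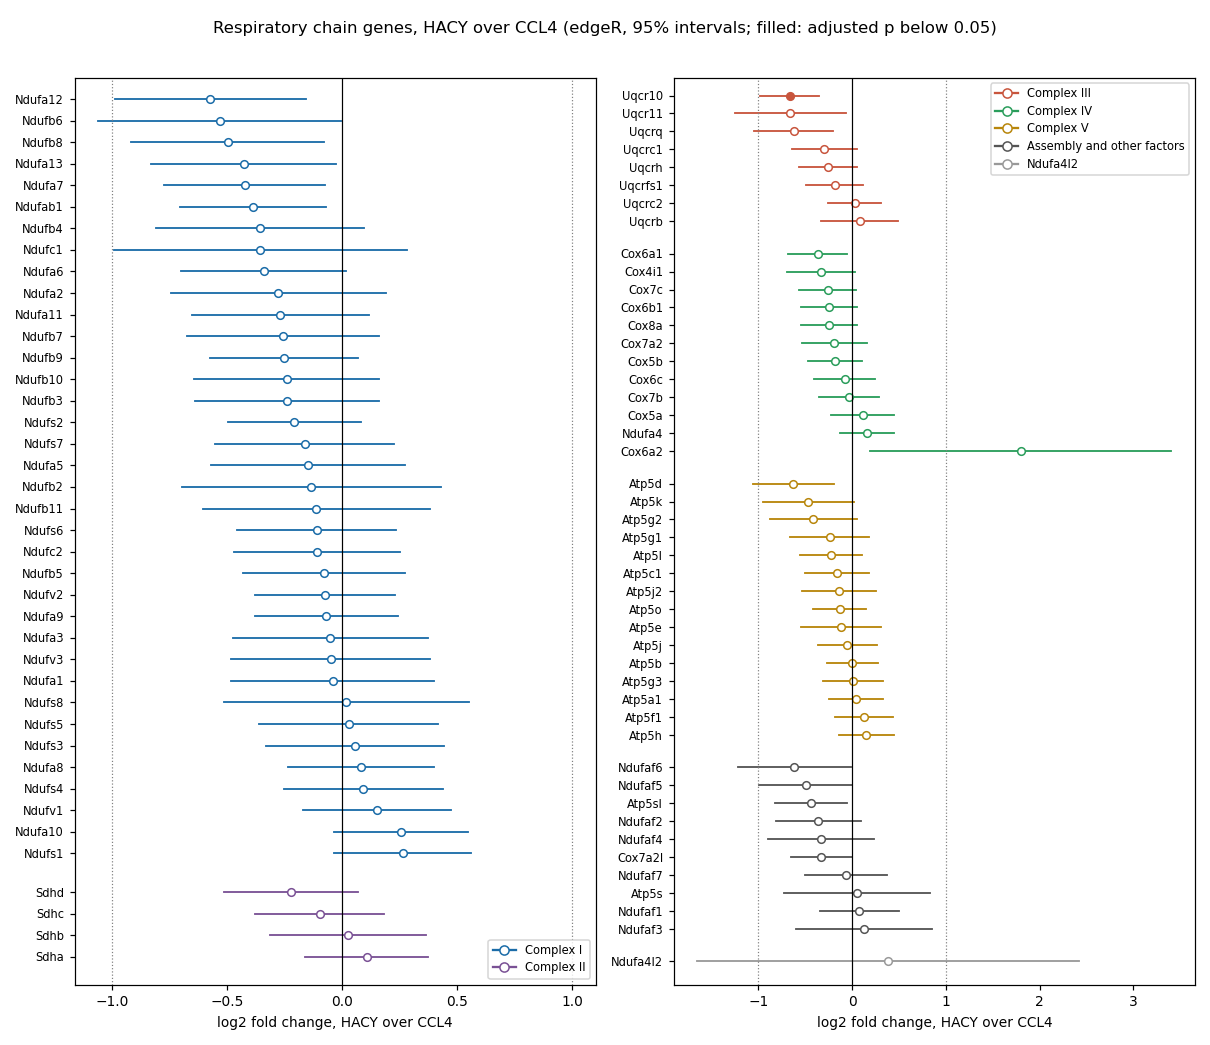
Log2 fold change (HACY over CCL4) of each of the 86 genes with its 95% interval, by complex. Filled points passed the test, dotted lines mark 2-fold either way, and the panels have different horizontal scales. Most points lie left of 0, and Uqcr10 in complex III is the one filled point.

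Complex III held the one gene that passed the test. Uqcr10, a small subunit at the edge of the complex (chromosome 11, 4701973 to 4704342, minus strand, GRCm38), had 54.9 and 61.2 CPM in HACY libraries against 88.5 and 95.6 CPM in CCL4 libraries. Its means were 58.0 ± 4.45 CPM in HACY and 92.1 ± 5.01 CPM in CCL4 (SD, n = 2 each). It fell by 0.67 on the log2 scale (95% interval -0.98 to -0.35, edgeR adjusted p = 0.0227). With each library left out in turn its log2 fold change ran between -0.75 and -0.60. The call was lost without HACY replicate 1 and without HACY replicate 2, where far fewer of all genes were called lower. It held without CCL4 replicate 1 and without CCL4 replicate 2. On the deposited FPKM, which for this gene imply a transcript far longer than the annotated one, the log2 difference was larger, at -1.23, and with offsets for transcript length and GC content it was -0.50. The call held in both.

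Of the other small subunits of complex III, Uqcrq, which lies beside cytochrome b, had 66.3 and 74.2 CPM in HACY against 90.3 and 126 CPM in CCL4 (log2 fold change -0.62, adjusted p = 0.0668). Uqcr11 had 28.8 and 34.9 CPM in HACY against 37.8 and 62.6 CPM in CCL4 (log2 fold change -0.66, adjusted p = 0.130). In both genes the groups did not overlap and the CCL4 libraries differed widely from each other. Uqcrh, the hinge protein that binds near cytochrome c1, had a log2 fold change of -0.25 without overlap. Uqcrb, a subunit near the quinone site, went the other way within its spread, with 92.3 and 94.1 CPM in HACY between the 103 and 73.3 CPM of the CCL4 libraries. The median of the 5 small subunits was -0.62. Of the large core proteins, Uqcrc1 had a log2 fold change of -0.30, lower than that of Uqcrh, and Uqcrc2 of 0.03. The Rieske iron-sulphur protein Uqcrfs1, which carries electrons to cytochrome c1, had one of -0.19. The difference between small subunits and core proteins was not tested. The core transcripts are longer (median 1774.5 bases) than those of the small subunits (535 bases). Both HACY libraries lay below both CCL4 libraries in 6 of the 8 genes and above both in none, against 30.1% and 30.7% of all tested genes.

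In complex I, 28 of 36 subunits had a log2 fold change below 0, and none passed the test. The median was -0.14, with a range of -0.57 to 0.26 over the genes. It was -0.07 without CCL4 replicate 2. The 7 core subunits of the matrix arm, which hold the flavin and iron-sulphur clusters, had a median of 0.02, with 4 above 0. The 29 supernumerary subunits, which surround the core and take no direct part in electron transfer, had a median of -0.24, with 25 below 0. Those of the membrane arm (19) had a median of -0.24, and those of the matrix arm (9) of -0.15. The difference between core and supernumerary subunits was not tested, and the core transcripts are longer (median 1623 bases) than the supernumerary ones (875 bases).

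Ndufa12, a matrix arm subunit, had 56.3 and 40.7 CPM in HACY against 72.8 and 71.6 CPM in CCL4 (log2 fold change -0.57, adjusted p = 0.0802). Ndufa7, also of the matrix arm, had 41.1 and 48.3 CPM in HACY against 57.8 and 62.2 CPM in CCL4 (log2 fold change -0.43, adjusted p = 0.108). Ndufab1, the mitochondrial acyl carrier protein, which is also used in fatty acid and lipoic acid synthesis, had 48.2 and 49.2 CPM in HACY against 60.7 and 66.8 CPM in CCL4 (log2 fold change -0.39, adjusted p = 0.107). Over complex I, both HACY libraries lay below both CCL4 libraries in 20 of 36 genes (55.6%, against 30.1% of all tested genes). They lay above both in 5 (13.9%, against 30.7%). Ndufa12, Ndufa7 and Ndufab1 were among the 20. At the other end, Ndufs1, the largest core subunit and the holder of several iron-sulphur clusters, had 73.9 and 76.3 CPM in HACY against 64.5 and 60.8 CPM in CCL4 (log2 fold change 0.26, adjusted p = 0.214). Ndufa10, a membrane arm subunit, had 105 and 117 CPM in HACY against 91.0 and 95.3 CPM in CCL4 (log2 fold change 0.25, adjusted p = 0.219). Neither passed the test, although both HACY libraries lay above both CCL4 libraries.

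Complex II had a median log2 fold change of -0.04. Without a single library that median ran between -0.10 (without CCL4 replicate 1) and 0.0043 (without CCL4 replicate 2), with -0.07 without HACY replicate 2 and -0.0071 without HACY replicate 1. Sdha, the flavoprotein that oxidises succinate, had 225 and 236 CPM in HACY against 218 and 211 CPM in CCL4 (log2 fold change 0.11, 95% interval -0.16 to 0.37). Sdhb, the iron-sulphur subunit, had 49.4 and 51.9 CPM in HACY against 46.5 and 53.2 CPM in CCL4 and overlapped. Of the membrane anchors, Sdhc had 93.2 and 98.3 CPM in HACY against 101 and 104 CPM in CCL4. Sdhd had 86.2 and 87.2 CPM in HACY against 106 and 96.2 CPM in CCL4 (log2 fold change -0.22, adjusted p = 0.274). Thus the pair of catalytic subunits had positive values and the pair of anchors negative ones, none past the test. All 4 intervals lay within 2-fold either way. The direction of Sdha turned when only library size was used for scaling (log2 fold change -0.07).

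In complex IV, the nuclear subunits surround a catalytic core that is encoded in the mitochondrial genome. Leaving out Cox6a2, 9 of 11 were below 0, with a median of -0.19, and none passed the test. Cox6a1 had 114 and 131 CPM in HACY against 147 and 168 CPM in CCL4 (log2 fold change -0.37, adjusted p = 0.120). Cox4i1, the regulatory subunit that binds ATP, had 191 and 212 CPM in HACY against 221 and 287 CPM in CCL4 (log2 fold change -0.34, adjusted p = 0.193). Cox7c had 82.7 and 88.0 CPM in HACY against 108 and 96.4 CPM in CCL4 (log2 fold change -0.26, adjusted p = 0.219). Of the 11, both HACY libraries lay below both CCL4 libraries in 8 (72.7%, against 30.1% of all tested genes). They lay above both in 2 (18.2%, against 30.7%). Cox6a1, Cox4i1 and Cox7c were among the 8. Ndufa4 ran the other way, with 76.1 and 77.4 CPM in HACY against 69.6 and 68.0 CPM in CCL4 (log2 fold change 0.16, adjusted p = 0.435), a direction that turned to -0.01 with scaling by library size only.

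Several complex IV subunits exist as a widespread isoform and one restricted to muscle, lung or testis. In all 4 libraries the widespread isoform held nearly all counts. Cox4i2, the lung isoform, made up 0.0229% to 0.188% of the Cox4i1 and Cox4i2 counts across libraries. Cox7a1, the heart and muscle isoform, made up 0.213% to 0.542% of its pair, and Cox6b2, the testis isoform, 0% to 0.125%. Cox8b, a heart and muscle isoform, had no count in any library, which allows at most 0.197% and 0.185% of the pair in HACY libraries and 0.151% and 0.137% in CCL4 libraries, for counting error only. Cox6a2, the heart and muscle isoform of Cox6a1, made up 1.18% (exact 95% binomial interval 0.767 to 1.74%) and 0.562% (0.299 to 0.959%) of its pair in HACY libraries. In CCL4 libraries it made up 0.103% (0.0212 to 0.30%) and 0.263% (0.120 to 0.498%). The muscle markers summed to 0 and 0.170 CPM in HACY and to 0.152 and 0.148 CPM in CCL4, and Myh4, Actc1 and Myl1 were at 0. An exon of Itgad, an integrin gene, overlaps Cox6a2 on the opposite strand, and the strand setting of the counting is not stated. Whether muscle cells or reads of Itgad have a part in the Cox6a2 counts was not tested.

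Ndufa4l2, a hypoxia-induced relative of Ndufa4, varied within the HACY group more than between groups, with 9 and 95 counts in HACY libraries against 45 and 45 in CCL4 libraries. It made up 0.642% and 6.52% of the Ndufa4 and Ndufa4l2 counts in HACY, on either side of the 3.17% and 3.16% in CCL4.

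**Figure D4:**
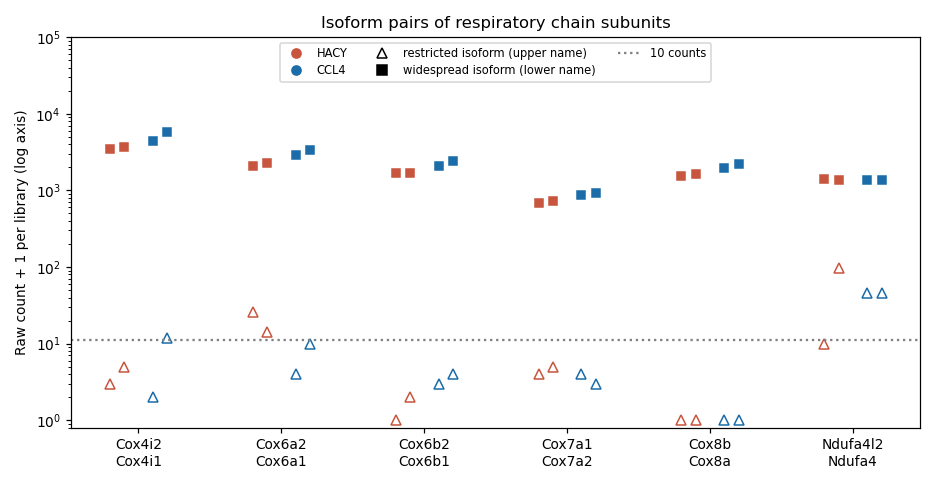
Raw counts plus 1 per library on a log axis for each isoform pair, with HACY libraries left and CCL4 libraries right. Triangles are the restricted isoform (upper name), squares the widespread one (lower name), and the dotted line marks 10 counts. The widespread isoforms lie between 683 and 5830 counts, and the widest scatter within a group is that of Ndufa4l2 in HACY.

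In complex V the parts had small medians of either sign, and the differences between parts were not tested. The catalytic head and central stalk had a median log2 fold change of -0.12, with members on both sides of 0. In the catalytic head, Atp5b had 925 and 986 CPM in HACY against 932 and 979 CPM in CCL4, with an interval of the log2 fold change of -0.27 to 0.27. Atp5a1 had 655 and 733 CPM in HACY against 648 and 698 CPM in CCL4 and overlapped too. Atp5d, the delta subunit of the central stalk, had 144 and 155 CPM in HACY against 189 and 275 CPM in CCL4 (log2 fold change -0.63, adjusted p = 0.0698). Its groups did not overlap, but the CCL4 libraries lay far apart, and its exons overlap those of Cbarp on the opposite strand. In the c-ring, which turns as protons pass, Atp5g2 had 69.1 and 73.4 CPM in HACY against 75.7 and 114 CPM in CCL4 (log2 fold change -0.41, adjusted p = 0.208). The 3 c-ring genes encode the same mature protein and had a median of -0.24. Atp5k, the membrane subunit e that takes part in dimer formation, had 11.1 and 13.5 CPM in HACY against 17.1 and 17.0 CPM in CCL4 (log2 fold change -0.47, adjusted p = 0.177). The 4 genes of the peripheral stalk, which holds the head still, had a median of 0.04. Over complex V, 10 of 15 genes were below 0 and the median was -0.13. Without CCL4 replicate 2 that median was 0.00085.

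The assembly and related factors had a median log2 fold change of -0.33, with 7 of 10 below 0 and none past the test. Both HACY libraries lay below both CCL4 libraries in 6 of the 10, against 30.1% of all tested genes. Without CCL4 replicate 1 the median was -0.16. Ndufaf6, which acts early in building complex I, had 9.39 and 6.75 CPM in HACY against 11.8 and 12.9 CPM in CCL4 (log2 fold change -0.61, adjusted p = 0.157). Ndufaf5, an enzyme that modifies a complex I subunit, had 10.4 and 9.93 CPM in HACY against 14.9 and 13.8 CPM in CCL4 (log2 fold change -0.50, adjusted p = 0.163). Cox7a2l, listed here as a factor for joining complexes into supercomplexes, had 83.8 and 98.9 CPM in HACY against 120 and 109 CPM in CCL4 (log2 fold change -0.33, adjusted p = 0.161). Whether it does so in these mice was not tested. Atp5sl, named after complex V but known in human cells from complex I assembly, had 22.8 and 22.8 CPM in HACY against 32.5 and 29.3 CPM in CCL4 (log2 fold change -0.44, adjusted p = 0.127). Ndufaf4, another complex I factor, had 30.9 and 32.4 CPM in HACY against 49.5 and 30.1 CPM in CCL4. Its high value was in 1 CCL4 library only, and without the other CCL4 library it was called lower (adjusted p = 0.0259).

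The number of genes called depended on the libraries and on the scaling. Without CCL4 replicate 1, 6 genes were called lower (Atp5d, Atp5g2, Ndufb8, Uqcr10, Uqcr11 and Uqcrq), against 4.02% of all genes tested there. Without CCL4 replicate 2, 2 were called lower (Uqcr10 and Ndufaf4), against 8.81%, and the median of the chain was -0.09. Without HACY replicate 1 or HACY replicate 2, none was called, against 0.719% and 0.782%. With DESeq2, 4 were called lower (Uqcr10, Atp5d, Uqcrq and Ndufa12), against 5.6% of all genes. On log2(FPKM + 1), 3 were called lower (Uqcr10, Atp5sl and Ndufab1), against 5.77%. With no filter on low counts, 3 were called lower (Uqcr10, Atp5d and Uqcrq), against 3.79%, and with replicate number as a block 2 (Uqcr10 and Uqcrq), against 2.46%. Scaling by library size only gave 11 called lower, against 10.1%. It shifted the median of all genes to -0.18 and that of the chain to -0.33. The distance between them, -0.14, was the same as with TMM. A change of scaling shifts all genes nearly alike, so it could hardly have changed this distance. With library size only, 82 of the 86 genes were below 0, so positive values near 0 given above turned negative under it. Over all alternatives that distance ran between -0.20 and -0.10.

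The CCL4 libraries differed from each other by base composition. Of the 86 genes, 18 were higher in CCL4 replicate 2 than in CCL4 replicate 1 by over 0.3 on the log2 scale and 3 were lower by as much, while between the HACY libraries 2 were higher and 3 lower. Across the 85 genes with an annotated transcript, the log2 ratio of CCL4 replicate 2 to replicate 1 had a Pearson correlation of 0.58 with GC content (Spearman 0.59), and that of the HACY libraries one of 0.17 (Spearman 0.15). These are descriptions across genes that share the same libraries. Other genes showed the same trend, with a median ratio of -0.27 at a GC content up to 42% and of 0.18 above 54%. Short transcripts were also somewhat lower in HACY among all genes: the median log2 fold change of other genes was -0.14 up to 600 bases, -0.08 above 600 and up to 1000 bases, and -0.06 above 1000 and up to 1500 bases. The respiratory chain genes in these classes had medians of -0.27, -0.15 and -0.19 (14, 31 and 17 genes). The median transcript of the chain was 955 bases long, against 3121 bases for all tested genes. With offsets for length and GC content the median of the chain was -0.22 and that of all genes -0.06, a distance of -0.16, and 7 genes were called lower (against 7.36% of all genes).

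**Figure D5:**
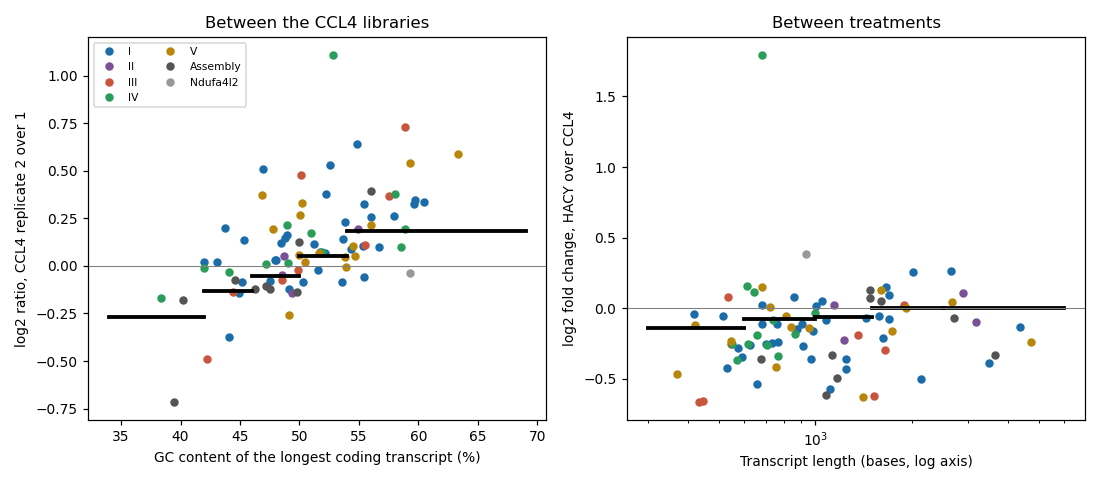
Left, log2 ratio of CCL4 replicate 2 over CCL4 replicate 1 against the GC content of each gene's longest coding transcript (percent). Right, log2 fold change of HACY over CCL4 against transcript length (bases, log axis); points are respiratory chain genes coloured by complex, and black lines are medians of other genes in classes of GC content or length. The left panel slopes upward for the chain and for other genes alike.

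Genes that serve the chain without being part of the symbol families were read from lists of pathway genes. Of 44 other assembly factors, 1 was called lower and none higher, with a median of -0.16. Among all tested genes 3.54% were called lower and 8.19% higher. Uqcc2, which helps build complex III around cytochrome b, had 17.9 and 17.6 CPM in HACY against 28.0 and 29.5 CPM in CCL4. It fell by 0.70 on the log2 scale (adjusted p = 0.0404). With each library left out in turn its log2 fold change ran between -0.73 and -0.66. The call was lost without HACY replicate 1 and without HACY replicate 2. Timmdc1, a complex I factor, had a log2 fold change of -0.54 and Tmem70, a complex V factor, of -0.48, neither past the test. A list of 18 genes covered cytochrome c, the making and handling of coenzyme Q, and enzymes that feed electrons to coenzyme Q. Of these 18, 1 was called higher and none lower (8.19% and 3.54% of all tested genes), with a median of 0.00. Cycs, the cytochrome c that links complexes III and IV, had 200.3 and 217 CPM in HACY against 154 and 145 CPM in CCL4. It rose by 0.48 on the log2 scale (adjusted p = 0.0441), and lost the call when scaled by library size only (adjusted p = 0.120). With each library left out in turn its log2 fold change ran between 0.42 and 0.53. The call was also lost without HACY replicate 1 and without HACY replicate 2. Adck3, which acts in coenzyme Q synthesis, had a log2 fold change of -1.08 and Dhodh, which feeds electrons from pyrimidine synthesis, of -0.64, neither past the test. Of 13 citric acid cycle genes none was called (11.7% of all tested genes, either direction), and the median was 0.14. Among them Ogdh had a log2 fold change of 0.31, Dlst of 0.19 and Idh3g of 0.19.

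Of 13 regulators of respiratory chain genes, 12 were below 0, against 50.9% of all tested genes, with a median of -0.26. Of the 13, 1 was called lower and none higher, against 3.54% and 8.19% of all tested genes. Ppargc1a, the coactivator PGC-1alpha, had 1.69 and 2.16 CPM in HACY against 14.0 and 9.71 CPM in CCL4. It fell by 2.62 on the log2 scale, 6.15-fold lower in HACY (adjusted p = 0.00446), and was called under each of the 14 alternatives that tested it. Polrmt, the mitochondrial RNA polymerase, had a log2 fold change of -0.54 (adjusted p = 0.0527). Gabpa, an ETS factor that binds respiratory chain promoters, had one of 0.47 (adjusted p = 0.0826). Exons of Gabpa overlap those of a complex V gene on the opposite strand. Nrf1 (-0.31), Esrra (-0.31) and Tfam (-0.26), which encode the nuclear respiratory factor, an orphan nuclear receptor and the packaging protein of mitochondrial DNA, did not pass the test. Their values depended on single libraries. Without CCL4 replicate 1 the log2 fold change was -0.16 for Nrf1, -0.10 for Tfam and -0.53 for Esrra. Without CCL4 replicate 2 it was -0.05 for Esrra and -0.41 for Tfam, and without HACY replicate 1 and HACY replicate 2 that of Esrra was -0.14 and -0.52.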

How the data were processed

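RNA of CD24+ liver cells was made into stranded paired-end mRNA libraries, per the labels' protocols. Each of the 4 libraries has a table with 1 raw read count and 1 FPKM value per gene symbol, per the file headers. The deposited counts sum to 19151738 and 18985478 in the HACY libraries and to 18467299 and 19314219 in the CCL4 libraries. The authors' FPKM values are scaled to length and depth, per the file headers. Trimmomatic, HISAT2, Cufflinks, HTSeq, DESeq and the build mm10 are named, per the submitters' processing notes. The annotation and strand setting are not stated in those notes or headers. Exons of 32 of the 86 genes overlap another gene (5 on the same strand), and 5 have pseudogenes named after them, so their counts are uncertain. Of the rows, 27 carry names turned into dates and were tested but not named. Replicates differed beyond sampling noise (chi-square per degree of freedom 19.8 for HACY, 35.6 for CCL4).

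The counts went into edgeR 4.0.16 (R 4.3.3): filterByExpr (minimum count 10, minimum total 15), TMM scaling and the robust quasi-likelihood test, two-sided, with treatment as the only term and a threshold of 0.05 on p-values adjusted over all genes. The BCV was 16.5%. Log2 fold changes are HACY over CCL4, and standard errors are approximate. GENCODE annotation of GRCm38 gave locations and lengths, and RefSeq gave promoters. Intervals of shares cover counting error only. Alternatives were other scalings, DESeq2 1.42.0, limma 3.58.1 (voom, and log2(FPKM + 1) with a mean FPKM of at least 1), other filters (none, or 50 counts), a block on replicate number, length and GC offsets (natural splines) and each library left out. The test was tried on simulated counts first.

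The genes and lists were chosen with earlier results of these data known. The text names called genes, in each complex and among the factors the 3 genes of smallest p and the one of highest FPKM, the isoform pairs, up to 3 genes of each other list with the smallest p, and Ppargc1a, Esrra, Nrf1 and Tfam. Others (Atp5a1, Atp5s, Ndufs1, Ndufa10, Ndufa11, Ndufb8, Ndufaf4, Ndufaf5, Sdhb, Uqcrc1, Uqcrc2, Uqcrfs1, Uqcrh) were named after their values were seen. The design named protein sequences for display; promoter sequences were used in their place.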

Additional observations from a re-analysis of the deposited data

How the results depend on the processing

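The share of counts kept its direction under the 6 alternatives run for it. As its groups did not overlap, leaving out a library could not have turned that direction. The median of the chain stayed below 0 under the 15 alternatives run for it, and no chain gene was called higher under any of the 15. The number of chain genes called, 1, became 11 with library size only (all genes: 856 higher, 1355 lower), 4 with DESeq2 (738 genes lower), 3 on log2(FPKM + 1) (647 genes higher, 637 lower), 3 with no filter and 7 with length and GC offsets (959 genes lower). The chain's median was -0.33 with library size only and -0.27 on log2(FPKM + 1), where the median of all genes was -0.18 and -0.10. With the replicate block 2 chain genes were called (Uqcr10 and Uqcrq), and 893 genes higher and 331 lower. Uqcc2 (adjusted p = 0.0757) and Cycs (0.0659) lost their calls under the block. Uqcc2 also lost it with length and GC offsets (0.107), and Cycs with those offsets (0.0698), upper-quartile scaling (0.0645) and log2(FPKM + 1) (0.0617). Deviations of same-numbered libraries had a correlation of -0.12, and a crossed pairing, added after seeing the data, called 6 chain genes and 3088 genes in all (1843 higher, 1245 lower). Leaving out each library in turn gave 0 to 6 chain genes called, 629 to 3047 genes in all (530 to 1840 higher, 99 to 1207 lower), a median of -0.22 to -0.09 and a share difference of -0.171 to -0.123 percentage points. The lowest number of genes in all came without HACY replicate 1 and the highest without CCL4 replicate 2. Single genes changed call in 65 of 608 fits, always in the same direction, and uncalled genes changed sign in 22. The causes were not tested. With 2 libraries a group, differences of the size seen in most chain genes are near their standard error.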

Other observations

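The deposited FPKM and counts do not always describe the same transcript length. For 7 of the 85 chain genes with an annotated transcript, the ratio of count to FPKM implies a length over 2 times that of the longest coding transcript. For Uqcr10 it implies 3729 bases against 434 annotated, and for Ndufa11 it implies 4495 bases against 918. On the FPKM scale Uqcr10 stood at 15.6 and 10.6 in HACY libraries and at 29.6 and 33.6 in CCL4 libraries, and the HACY libraries change order between the scales. The levels per length of these 7 genes are therefore uncertain.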
